A study of Homo sapiens with 4 samples.

Results

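The 6 mRNAs that the mitochondrial genome contributes to respiratory complexes III, IV and V were taken by symbol: MT-CYB of complex III, MT-CO1, MT-CO2 and MT-CO3 of complex IV, and MT-ATP6 and MT-ATP8 of complex V. All 6 were counted in every library, among 33634 genes with a count in at least 1 library and 33640 listed. The RNA came from nuclei of H9, an established line of human primed pluripotent stem cells, prepared and lightly fixed before reverse transcription (RT) with a poly-T primer. RT was carried out after tagmentation of chromatin by Tn5 (Post) or before it (Pre), and in each order 1 library was made alongside profiling of H3K27me3 and H3K27ac (RNA and DNA, called joint here) and 1 without it (RNA only). All 4 libraries are thus of the same untreated line, and which tagmentation steps the RNA-only nuclei went through is not given in the sources used here. Each condition is 1 library, so no difference below has a replicate check and no test between conditions was made. The question was whether the order of the steps, or the added chromatin profiling, moved these mRNAs relative to the rest of the transcriptome.

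Complex III passes electrons from ubiquinol to cytochrome c, complex IV passes them on to oxygen, and complex V uses the proton gradient that both help to build to make ATP. Each is assembled from mitochondrially and nuclear-encoded subunits, so 2 genomes have to supply it. The mitochondrial mRNAs are cut out of long precursor transcripts, largely at the tRNAs that lie between them, and carry short poly(A) tails added inside the mitochondrion. Their presence here is that of RNA in a preparation labelled as nuclei, and these bulk counts cannot separate fewer organelles retained from less RNA in each.

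All 6 lie on the + strand of the mitochondrial chromosome of GRCh38 in GENCODE 44, as single exons. MT-CO1 spans 5904 to 7445, MT-CO2 7586 to 8269, MT-ATP8 8366 to 8572, MT-ATP6 8527 to 9207, MT-CO3 9207 to 9990 and MT-CYB 14747 to 15887. The last bases of 3 of these genes are shown from that genome because their stop codons are not of the usual kind, with the bases at the place of the stop codon in capitals.
MT-CO1: gaacccgtatacataaaatctAGA
MT-CO3: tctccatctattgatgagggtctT
MT-CYB: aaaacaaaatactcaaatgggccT
MT-CO3 and MT-CYB end 1 base past the last whole codon, on a lone T that the added tail completes to a stop codon. MT-CO1 ends in AGA, which stands where the usual stop codon would. The other 3 end in a whole TAA or TAG.

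MT-ATP8 and MT-ATP6 are read from 1 transcript in overlapping frames. The 46 shared bases, chrM:8527-8572, make up 22.2% of MT-ATP8 and 6.75% of MT-ATP6, and are shown with the start codon of MT-ATP6 and the stop codon of MT-ATP8 in capitals.
overlap: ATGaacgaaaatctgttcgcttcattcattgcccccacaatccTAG
How the authors' counting divided reads over these bases is not given in the sources used here, so the counts of this pair are less certain than those of the others. MT-ATP6 and MT-CO3 share 1 base, 9207. Because the primer was poly-T, the most A-rich 20 bases of each mRNA were also located, and those of MT-ATP8 (chrM:8489-8508) and MT-CO1 (chrM:6399-6418) are shown with A in capitals.
MT-ATP8: AtAAAAAtAAAAAAttAtAA
MT-CO1: AcAAcAAttAtcAAtAtAAA
The stretch in MT-ATP8 holds 15 A, more than in any other of the 13 mitochondrial mRNAs, where the count was 9 to 14. MT-CO1 holds 12. Whether RT started at such stretches was not measured.

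Copies of these genes in the nuclear genome may bear on how reads were counted. The methods describe keeping only uniquely mapped reads for the single-cell data, and whether that filter was used for these libraries is not stated. MT-CO1, MT-CO2, MT-ATP6 and MT-ATP8 each aligned over 100% of their length, and MT-CO3 over 70.0%, to 1 stretch of chromosome 1 between 631074 and 634924, at 97.6% to 98.6% identity. MT-CYB had its best match on chromosome 5, from 94569540 to 94570680, at 86.0% identity. Of all 50-base windows, 50.6% in MT-CO1, 46.7% in MT-ATP6, 30.9% in MT-CO3, 29.0% in MT-CO2, 8.23% in MT-ATP8 and 1.65% in MT-CYB also occurred exactly in the nuclear genome. With 100-base windows these shares were 27.9% in MT-CO1, 11.9% in MT-ATP6, 4.67% in MT-CO3, 2.39% in MT-CO2 and 0% in both MT-ATP8 and MT-CYB. The share of sequence open to a filter on unique mapping thus differed among the 6 mRNAs, and its part in the levels was not tested, as the read length is not given in the sources used here.

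The libraries held 10089552 counts for Post joint, 8960724 for Pre joint, 6368721 for Post RNA-only and 9379073 for Pre RNA-only. Levels are given as reads per 1000000 counted (RPM), with exact 95% Poisson intervals that cover counting error only. One feature of the totals touches the RPM values: 6 genes listed under the clone names FP236383 and FP671120 took 34.8% of the Post RNA-only library, against 10.7% to 15.8% of the other 3. The 8 pluripotency markers examined summed to 1786 to 2564 RPM, and 6 markers of other cell types to 24.3 to 36.6 RPM, most of it COL1A2 at 20.3 to 29.6 RPM. TBXT, a mesoderm marker, stood at 0 to 0.320 RPM.

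Together the 6 mRNAs gave 2801 RPM (2769 to 2834) in Post joint, 4174 RPM (4132 to 4217) in Pre joint, 3549 RPM (3503 to 3596) in Post RNA-only and 3772 RPM (3733 to 3812) in Pre RNA-only. The Post joint library was the lowest. The Pre joint library was the highest on these totals, but with the FP236383 and FP671120 genes out of the totals the sums were 3328 RPM in Post joint, 4674 RPM in Pre joint, 5445 RPM in Post RNA-only and 4302 RPM in Pre RNA-only, so that Post RNA-only was the highest. All 13 mitochondrial mRNAs made up 0.504% (0.499% to 0.508%) of Post joint, 0.747% (0.741% to 0.752%) of Pre joint, 0.580% (0.574% to 0.586%) of Post RNA-only and 0.672% (0.666% to 0.677%) of Pre RNA-only, with Clopper-Pearson intervals.

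MT-CO1, the catalytic core subunit of complex IV, had 1070 RPM (1050.2 to 1091) in Post joint, 1756 RPM (1729 to 1784) in Pre joint, 1309 RPM (1281 to 1338) in Post RNA-only and 1596 RPM (1571 to 1622) in Pre RNA-only. On these totals it was below its Pre partner in both Post libraries, and it ranked between the 11th and the 23rd of all genes. MT-CO2, the subunit that takes electrons from cytochrome c, had 236 RPM (226 to 245) in Post joint, 278 RPM (267 to 289) in Pre joint, 330 RPM (316 to 345) in Post RNA-only and 257 RPM (247 to 268) in Pre RNA-only. Its highest level was in the Post RNA-only library. MT-CO3, the third mitochondrial subunit of the enzyme, had 709 RPM (693 to 726) in Post joint, 1021 RPM (999.9 to 1042) in Pre joint, 974 RPM (949.6 to 998) in Post RNA-only and 930 RPM (911 to 950.2) in Pre RNA-only, so that 1 library, Post joint, stood below the other 3.

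MT-CYB encodes cytochrome b, the one mitochondrial subunit of complex III. It had 303 RPM (293 to 314) in Post joint, 402 RPM (389 to 415) in Pre joint, 324 RPM (310.1 to 338) in Post RNA-only and 357 RPM (345 to 369) in Pre RNA-only. On these totals both Post libraries were below both Pre libraries.

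MT-ATP6 forms part of the proton channel of complex V, and had 379 RPM (367 to 391) in Post joint, 530 RPM (515 to 545) in Pre joint, 470 RPM (453 to 487) in Post RNA-only and 464 RPM (450.3 to 478) in Pre RNA-only. The intervals of the RNA-only libraries overlapped. MT-ATP8, a small membrane subunit of the same enzyme, had 104 RPM (97.8 to 110.5) in Post joint, 188 RPM (179 to 197) in Pre joint, 142 RPM (133 to 152) in Post RNA-only and 167 RPM (159 to 176) in Pre RNA-only. Its highest level was 1.81 times its lowest, and that of MT-CYB 1.32 times.

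The order of the Post RNA-only library rested on its total. With the FP236383 and FP671120 genes out of the totals, all 6 mRNAs were highest in Post RNA-only and lowest in Post joint. Leaving those genes out raises the RPM of every other gene, most of all in Post RNA-only. The share of all genes with the same order was not computed, so this count is a description. For MT-CO1 and MT-ATP8 the lead of Post RNA-only over Pre joint was within counting error. MT-CO1 then stood at 1272 RPM in Post joint, 1967 RPM in Pre joint, 2009 RPM in Post RNA-only and 1820.3 RPM in Pre RNA-only. The highest level over the lowest was then 1.81 times for MT-CO2, 1.77 times for MT-CO3, 1.76 times for MT-ATP8 and 1.38 times for MT-CYB, so which of the 6 ranged most widely also depended on the totals.

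**Figure D1:**
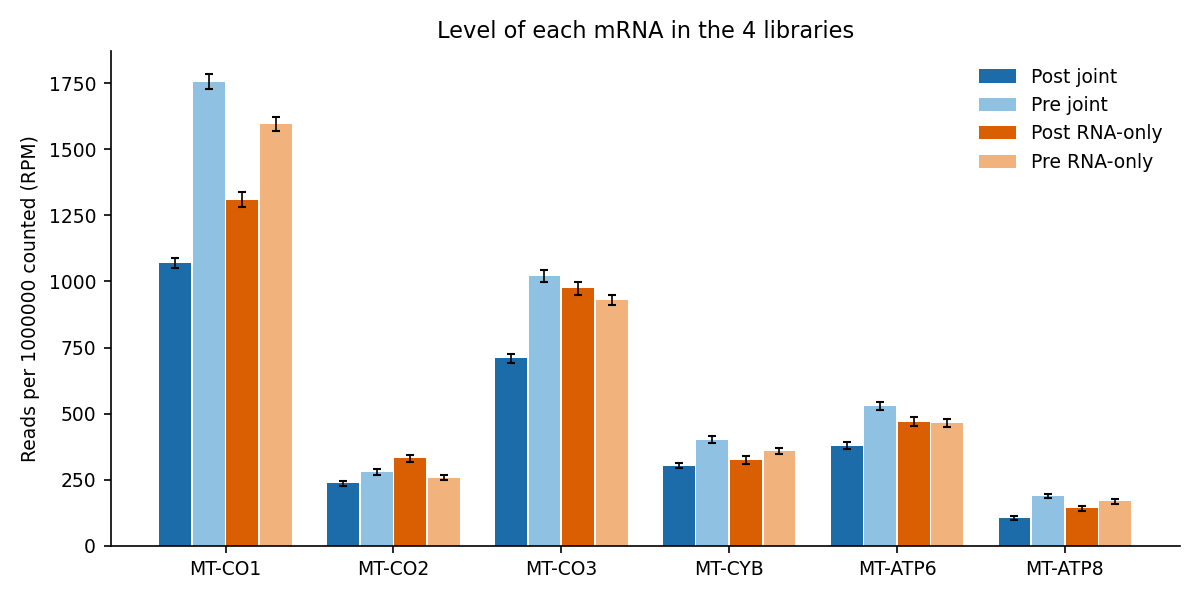
Level of each of the 6 mRNAs (RPM, linear axis from 0) in the 4 libraries; bars are single libraries and error bars are exact 95% Poisson intervals of the count. The Post joint bar is the lowest of its gene throughout, and on these totals the highest bar is Post RNA-only for MT-CO2 and Pre joint for the other 5, whereas without the FP236383 and FP671120 genes it is Post RNA-only for all 6.

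Levels of different genes were compared per kilobase. The fragments start from the primed end of a cDNA, so counts need not scale with length and this order is a description. Mean levels over the 4 libraries were 1159 RPM per kb for MT-CO3, 929 for MT-CO1, 726 for MT-ATP8, 676 for MT-ATP6, 403 for MT-CO2 and 304 for MT-CYB. Of the 5 neighbouring pairs in this order, 4 kept their order in every library. MT-ATP8 and MT-ATP6 did not: MT-ATP8 stood below MT-ATP6 in Post joint, at 502 against 556 RPM per kb, did not differ from it beyond counting error in Post RNA-only, at 686 against 690, and stood above it in both Pre libraries, at 908 against 778 in Pre joint and 808 against 681 in Pre RNA-only. The subunits of complex IV alone thus spanned from the top of the order to the next to lowest place.

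Between libraries, ratios were set against the median of the 11564 genes that averaged 10 RPM or more, because the medians themselves lay away from 0 on the log2 scale, at −0.094 for Post over Pre in the joint pair, −0.44 for Post over Pre in the RNA-only pair, 0.38 for joint over RNA-only among the Post libraries and 0.025 among the Pre libraries. A relative log2 ratio is log2 of the ratio of RPM + 1 minus that median.

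In the joint pair, all 6 mRNAs were lower in Post than in Pre relative to the median gene, against 50% of all genes above it by construction. The relative log2 ratios were −0.75 for MT-ATP8, −0.62 for MT-CO1, −0.43 for MT-CO3, −0.39 for MT-ATP6, −0.31 for MT-CYB and −0.14 for MT-CO2, with a median of −0.41. No counting interval reached 0, and the closest, of MT-CO2, was −0.23 to −0.064. For MT-ATP8, 0.553% of all genes had a lower ratio, and for MT-CO1 1.59%. The 10th and the 90th percentile of all genes were −0.32 and 0.27. On the RPM scale the 6 were also all lower, by −0.85 to −0.24, and under each of 5 other scalings.

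In the RNA-only pair the position was the opposite. All 6 were higher in Post than in Pre relative to the median gene, with relative log2 ratios of 0.80 for MT-CO2, 0.50 for MT-CO3, 0.46 for MT-ATP6, 0.30 for MT-CYB, 0.20 for MT-ATP8 and 0.15 for MT-CO1, and a median of 0.38, where 50% of all genes lay above by construction. The 10th and the 90th percentile of all genes were −0.37 and 0.43. The median of the 6 and the values of MT-CYB, MT-ATP8 and MT-CO1 lay inside that range. Over the 2034 genes that averaged 100 RPM or more, these percentiles were −0.38 and 0.31 relative to the same median. The median of the 6 lay above that range, while MT-CYB, MT-ATP8 and MT-CO1 stayed inside it. MT-CO2 had a ratio above that of 97.5% of all genes, MT-CO1 above that of 69.2%. On the RPM scale 3 of the 6 were higher in Post and 3 lower, from −0.29 to 0.36, and leaving the 6 FP236383 and FP671120 genes out of the totals turned all 6 to higher, from 0.14 to 0.79. With no filter on low genes MT-CO1 and MT-ATP8 fell on the other side of the median, at −0.066 and −0.014.

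**Figure D2:**
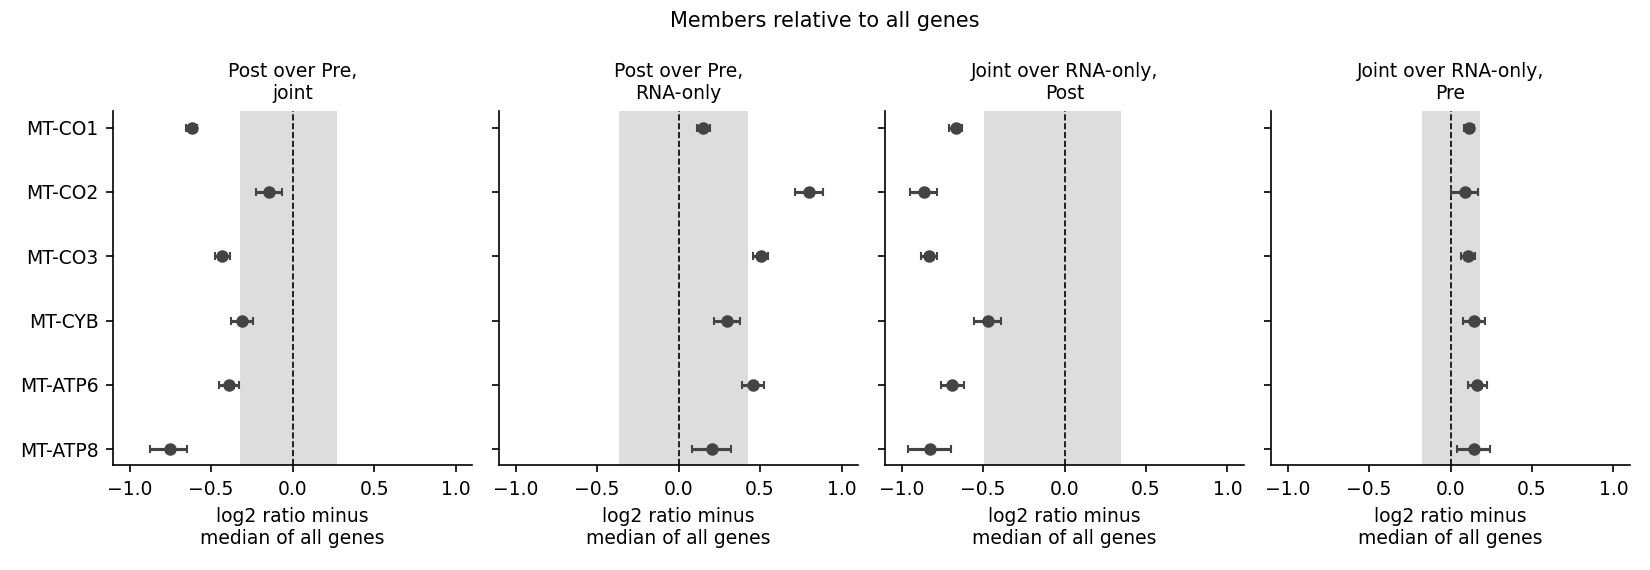
Relative log2 ratio of each mRNA (x axis, log2 ratio minus the median of all genes) in the 4 comparisons; points are ratios of 2 libraries, error bars 95% counting intervals, the dashed line the median gene and the grey band the range from the 10th to the 90th percentile of 11564 genes. For Post over Pre the 6 lie left of the line in the joint pair and right of it in the RNA-only pair.

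The comparisons of joint with RNA-only libraries use the same 4 libraries in other pairs, so they are not further evidence. Among the Post libraries all 6 were lower in the joint library, at relative log2 ratios of −0.86 for MT-CO2, −0.83 for MT-CO3, −0.82 for MT-ATP8, −0.69 for MT-ATP6, −0.67 for MT-CO1 and −0.47 for MT-CYB. The median was −0.76, and the 10th and the 90th percentile of all genes were −0.49 and 0.35. Among the Pre libraries all 6 were higher in the joint library, by 0.087 for MT-CO2 to 0.17 for MT-ATP6, with a median of 0.13. On the RPM scale and under each of 5 other scalings these directions were the same. The spread of 0.078 across the 6 among the Pre libraries compares with 0.39 among the Post libraries. Among the Pre libraries the counting intervals of the 6 overlapped, such as 0.0058 to 0.17 for MT-CO2 and 0.11 to 0.23 for MT-ATP6. Between the Pre libraries the 10th and the 90th percentile of all genes likewise lay closer together, at −0.18 and 0.18. All 6 values lay inside that range. Over the 2034 genes that averaged 100 RPM or more, these percentiles were −0.11 and 0.12 relative to the same median. MT-ATP6 at 0.17, MT-CYB at 0.14, MT-ATP8 at 0.14 and the median of the 6 lay above that narrower range.

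None of the 6 reached a 2-fold difference in RPM in any comparison, in either direction. At 1.5-fold MT-CO1 and MT-ATP8 were lower for Post over Pre in the joint pair, as were 3.47% of all genes. Of all 11564 genes, 0.104% passed 2-fold upwards and 0.199% downwards for Post over Pre in the joint pair, and 0.692% upwards and 2.53% downwards in the RNA-only pair. For joint over RNA-only, 0.899% were higher and 0.77% lower among the Post libraries, and 0% higher and 0.0173% lower among the Pre libraries. These splits moved with the scaling. With TMM the counts for Post over Pre in the RNA-only pair were 142 higher and 13 lower against 80 and 293 on RPM, and those for joint over RNA-only among the Post libraries were 7 and 255 against 104 and 89. For Post over Pre in the joint pair they were 14 and 17 with TMM and 24 and 19 without the 20 most abundant genes, against 12 and 23 on RPM.

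Within a library, the ratio of one mRNA to another does not depend on the total. MT-CO1 was 4.54 times MT-CO2 by count in Post joint and 3.96 times in Post RNA-only, against 6.32 times in Pre joint and 6.20 times in Pre RNA-only. The counting intervals of the Post libraries, from 3.78 to 4.75, lay apart from those of the Pre libraries, from 5.94 to 6.59. MT-CO2 was 2.27 and 2.32 times MT-ATP8 in the joint and the RNA-only Post library, against 1.48 and 1.54 times in the Pre libraries in the same order. MT-CO3 was 6.82 and 6.85 times MT-ATP8 in the Post libraries, against 5.43 and 5.56 times in the Pre libraries. For the overlapping pair, MT-ATP6 was 3.64 and 3.31 times MT-ATP8 in the Post libraries, against 2.82 and 2.77 times in the Pre libraries. As both are read from 1 transcript, this ratio compares counts along that transcript and not the levels of separate mRNAs.

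Over all 15 pairs of the 6 mRNAs, 11 ratios did not overlap between the Post and the Pre libraries, or 73.3% against 42.9% of all pairs of genes that averaged 100 RPM or more. In 8 of them, or 53.3% against 9.65% of all such pairs, the counting intervals of the 4 libraries lay apart as well. Intervals narrow as counts grow, and the 6 were not matched to that background on count. In these 8, MT-CO1 stood lower in Post against MT-CO2, MT-CO3 and MT-ATP6. MT-CO2 stood higher against MT-CO3, MT-ATP6 and MT-ATP8, and MT-CO3 and MT-ATP6 stood higher against MT-ATP8. The intervals of the Pre libraries overlapped in all 15 pairs and those of the Post libraries in 6. The pairs share members and are not independent of each other.

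**Figure D3:**
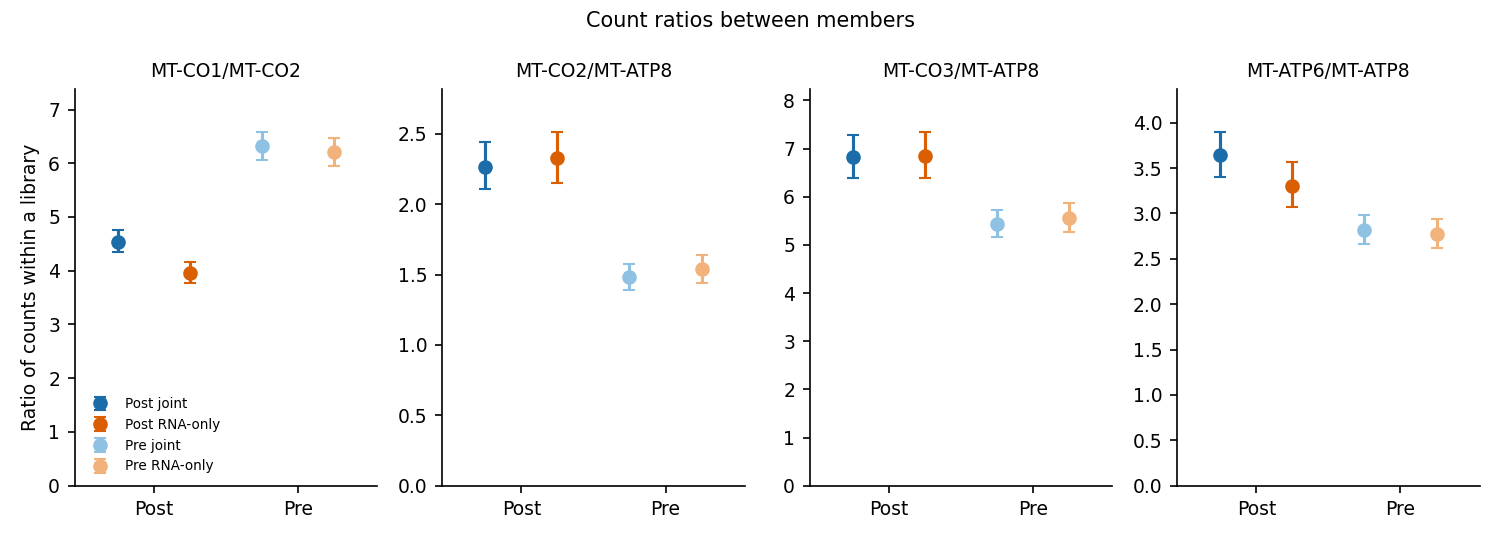
Ratio of counts between members within each library (y axis, linear from 0) for 4 of the 15 pairs; points are single libraries and error bars exact 95% intervals of the ratio. MT-CO1 over MT-CO2 is lower in both Post libraries than in both Pre libraries, and the 3 ratios to MT-ATP8 are higher.

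As shares of the 6 summed, with Clopper-Pearson intervals, MT-CO1 took 38.2% (37.6% to 38.8%) in Post joint and 36.9% (36.3% to 37.5%) in Post RNA-only, against 42.1% (41.6% to 42.6%) in Pre joint and 42.3% (41.8% to 42.8%) in Pre RNA-only. MT-CO2 took 8.41% (8.09% to 8.74%) in Post joint and 9.31% (8.93% to 9.69%) in Post RNA-only, against 6.66% (6.41% to 6.92%) in Pre joint and 6.82% (6.56% to 7.09%) in Pre RNA-only. MT-CO1 thus took a smaller share in both Post libraries than in both Pre libraries, and MT-CO2 a larger one. MT-ATP8 took 3.71% (3.49% to 3.94%) in Post joint and 4.00% (3.75% to 4.27%) in Post RNA-only, against 4.50% (4.29% to 4.72%) in Pre joint and 4.43% (4.22% to 4.65%) in Pre RNA-only. Its shares were smaller in both Post libraries, but the intervals of the RNA-only libraries overlapped. MT-CO3 took 25.3% in Post joint and 27.4% in Post RNA-only, against 24.5% in Pre joint and 24.7% in Pre RNA-only. MT-ATP6 took 13.5%, 13.2%, 12.7% and 12.3% in the same order. MT-CYB had no order of Post against Pre, with 10.8% (10.5% to 11.2%) in Post joint, 9.62% (9.32% to 9.92%) in Pre joint, 9.13% (8.75% to 9.51%) in Post RNA-only and 9.47% (9.16% to 9.78%) in Pre RNA-only. As shares of the same sum, these values are not independent: a smaller share of MT-CO1 raises those of others.

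The 7 mitochondrial mRNAs of complex I, the NADH dehydrogenase, are made from the same genome and summed to 2237 RPM in Post joint, 3291 RPM in Pre joint, 2249 RPM in Post RNA-only and 2943 RPM in Pre RNA-only. In the joint pair the 6 mRNAs of complexes III to V were 1.25 times this sum (1.23 to 1.27) in Post and 1.27 times (1.25 to 1.29) in Pre, and these intervals overlap. In the RNA-only pair they were 1.58 times this sum (1.55 to 1.61) in Post, against 1.28 times (1.262 to 1.302) in Pre. For Post over Pre, all 7 complex I mRNAs were below the median gene in the joint pair, with a median of −0.41. In the RNA-only pair 4 of them were above it and 3 below, from −0.27 for MT-ND5 to 0.69 for MT-ND1, with a median of 0.077.

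The nuclear-encoded subunits of complexes III to V, 38 of 38 measured, lay on the same side of the median gene as their mitochondrial partners in most cases. For Post over Pre, all 38 were below it in the joint pair (median −0.37), and in the RNA-only pair 36 were above it (median 0.54), where 50% of all genes are. COX4I1, a structural subunit of complex IV, had 35.9 RPM in Post joint, 60.04 RPM in Pre joint, 49.6 RPM in Post RNA-only and 48.9 RPM in Pre RNA-only. ATP5F1B, the catalytic beta subunit of complex V, had 103 RPM, 142 RPM, 140 RPM and 131 RPM in the same order. Both were lowest in the Post joint library. UQCRC2, a core protein of complex III, lay at −0.16 in the joint pair and −0.018 in the RNA-only pair, closer to the median gene than most of its list. By complex, the medians for Post over Pre were −0.48 (complex IV, 11 genes), −0.34 (complex V, 18 genes) and −0.26 (complex III, 9 genes) in the joint pair, and 0.72, 0.51 and 0.42 in the RNA-only pair. For joint over RNA-only, all 38 were below the median gene among the Post libraries (median −0.83) and 37 above it among the Pre libraries (median 0.18).

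Genes that act on these complexes without being part of them lay closer to the median gene. The 30 assembly factors had medians of −0.033 in the joint pair (11 above) and 0.16 in the RNA-only pair (23 above) for Post over Pre. TTC19, a complex III assembly factor, lay at −0.12 in the joint pair and 0.033 in the RNA-only pair, and COX16, a complex IV assembly factor, at 0.11 and 0.031 in that order. The 23 genes of mitochondrial RNA synthesis and processing had medians of −0.069 (8 above) in the joint pair and 0.23 (16 above) in the RNA-only pair. LRPPRC, which stabilises mitochondrial mRNAs and supports their polyadenylation, had 307 RPM in Post joint, 310.0 RPM in Pre joint, 249 RPM in Post RNA-only and 295 RPM in Pre RNA-only. Its partner SLIRP lay at −0.060 in the joint pair and −0.061 in the RNA-only pair. PRORP, which cuts tRNA 5' ends in the precursor transcripts, lay at −0.074 and −0.22. The 8 pluripotency markers had medians of −0.27 in the joint pair (1 above, 7 below) and 0.18 in the RNA-only pair (5 above, 3 below).

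**Figure D4:**
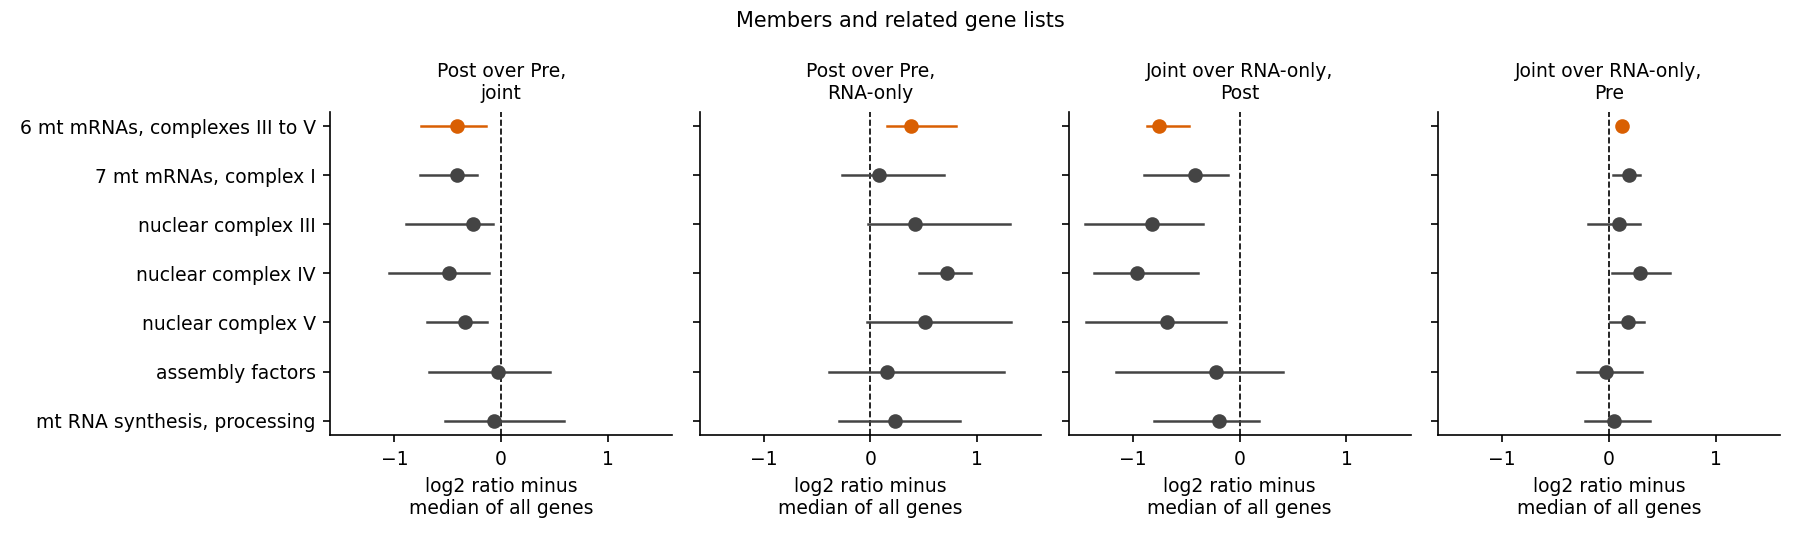
Relative log2 ratios (x axis, log2 ratio minus the median of all genes) of the 6 mRNAs and of 6 related gene lists in the 4 comparisons; points are medians over the list and lines run from its lowest to its highest gene. In each comparison, the nuclear lists of complexes III to V have medians on the same side of the dashed line as the 6 mRNAs. So do the complex I mRNAs and the genes of mitochondrial RNA synthesis and processing. The medians of the assembly factors lie between −0.22 and 0.16.

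Among 2022 genes outside the mitochondrial genome that averaged 100 RPM or more, those with the pattern most like that of the 6 summed were sought, by the root mean square distance between log2(RPM + 1) values centred on their mean over the 4 libraries. The nearest were TPI1, a glycolytic enzyme, at 0.0294, YWHAB, a 14-3-3 protein, at 0.0308, TDGF1, a Nodal co-receptor high in pluripotent cells, at 0.0384, RPL14, a ribosomal protein, at 0.0393, and TUBB, a beta-tubulin, at 0.0444. The median distance over all 2022 was 0.301. TPI1 had 90.8 RPM in Post joint, 131 RPM in Pre joint, 117 RPM in Post RNA-only and 119 RPM in Pre RNA-only. By the same measure MT-ATP6 was the member nearest to the sum, at 0.0532, and MT-CO2 the farthest, at 0.203. With 4 libraries many genes can share a pattern, and these distances describe 4 points.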

How the data were processed

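Transcripts of H9 nuclei were counted in 4 libraries, 1 per condition. Per gene symbol, the authors deposited whole counts that had not been normalized. The submitters' processing notes name Trim Galore 0.6.10, Bowtie 1.3.1, Bowtie2 2.5.3, STAR 2.7.11b, SAMtools and GRCh38. The names of the deposited count tables mark them as free of duplicates. The methods describe unique mapping, and removal of duplicates by position and unique molecular identifier, for the single-cell data, and whether these were the steps and settings used here is not stated. The annotation and strand setting of the counting are not given in the sources used here. A further 60 barcode columns, which no label ties to a sample, were not used.

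Columns were tied to conditions through the RT number of each file and the sample titles. Counts were divided by library totals (6368721 to 10089552), 1 RPM was added, and log2 ratios were set against the median of 11564 genes averaging 10 RPM or more. Intervals at 95% are exact (Poisson, Clopper-Pearson, conditional binomial) and cover counting error only. With 1 library per condition no test between conditions was run. The members, gene lists and alternatives were chosen with earlier results of these data known. Genes named are the 6 members, the 3 most abundant of each list or some of these, and the 5 nearest in pattern. MT-ND1, the ends of other ranges, and the markers COL1A2 and TBXT were named after their values were seen, as were the 4 pairs plotted. Neither of the 2 mitochondrial rRNAs was found by symbol among the genes with a count, so they were not analysed here. TMM and median-of-ratios factors came from edgeR 4.0.16 and DESeq2 1.42.0 in R 4.3.3. Sequences were read from GRCh38 with GENCODE 44 and aligned with BLAST 2.17.0. Python 3.11.15 with scipy 1.17.1, pandas 2.3.3, numpy 2.4.6 and matplotlib 3.10.9 was used, and the ratio step was tested on simulated data.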

Additional observations from a re-analysis of the deposited data

Results flagged for a closer look

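The difference between Post and Pre ran in opposite directions in the joint (RNA and DNA) and the RNA-only pair, for each of the 6 mRNAs relative to the median gene. Medians of other lists did so too, at −0.37 and 0.54 for the 38 nuclear-encoded subunits and −0.41 and 0.077 for the complex I mRNAs. They were −0.033 and 0.16 for assembly factors, −0.069 and 0.23 for mitochondrial RNA synthesis and processing, and −0.27 and 0.18 for pluripotency markers. The reversal was thus not particular to the 6, and its share over all genes was not computed. The difference between the pairs was not tested, since each rests on 2 libraries. As the relative log2 ratio of the joint pair minus that of the RNA-only pair, it was −0.96 for MT-ATP8, −0.94 for MT-CO2, −0.93 for MT-CO3, −0.84 for MT-ATP6, −0.77 for MT-CO1 and −0.61 for MT-CYB, and −0.79 between the medians of the 6. The Post RNA-only library is also the one in which the FP236383 and FP671120 genes took 34.8% of counts. Subtracting the median gene removes the effect of any total, so a relative ratio cannot show whether these genes have a part in the difference, which was not tested.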

How the results depend on the processing

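Each relative median kept its sign under every alternative. The 5 other scalings could hardly move a relative ratio, since subtracting the median gene removes the effect of any total. Their outcomes are therefore no check of these values. For Post over Pre in the RNA-only pair, it was 0.30 over genes of at least 1 RPM, 0.44 over genes of at least 100 RPM, 0.16 with no filter and 0.32 with a pseudocount of 5 RPM, against 0.38. For Post over Pre in the joint pair, it was −0.45, −0.44 and −0.49 with the first 3 of these, against −0.41. For joint over RNA-only among the Post libraries, it was −0.72, −0.83, −0.62 and −0.70 with all 4, against −0.76. With no filter MT-CO1 and MT-ATP8 turned to −0.066 and −0.014 for Post over Pre in the RNA-only pair. The other 262 of 264 values of single members kept their sign, a count that includes the values under those 5 scalings. At a 1.5-fold threshold 2 members were lower for Post over Pre in the joint pair, where 3.47% of all genes are, against 0 at 2-fold.

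No paired analysis was possible because each condition is 1 library, and for the same reason no value leaves out a library. The intervals measure counting error alone, and the spread between repeat preparations was not measured.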
